A study of Homo sapiens with 3 samples.

Results

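The genes described here are 9 genes of MHC class I antigen presentation, followed across 3 RNA sequencing libraries of CaSki cells. They were taken by symbol from a list and make up 9 of the 23277 gene symbols with values. They are the heavy chain genes HLA-B, HLA-C and HLA-F, the light chain gene B2M, the peptide transporter gene TAP2, the transactivator gene NLRC5, the peptidase genes ERAP1 and ERAP2, and the proteasome subunit gene PSMB10. CaSki is an established line from an epidermoid carcinoma of the cervix that carries human papillomavirus, and all 3 libraries came from it. The first library came from cells with the empty retroviral vector pMSCV given an siRNA against GFP, which serves as the control siRNA. The second came from cells with FLAG-tagged NANOG in pMSCV, given the same GFP siRNA. The third came from the FLAG-NANOG cells given an siRNA against HDAC1. Whether the transduced cells were a pool or a clone is not given in the sources used here. HDAC1 siRNA without NANOG was not analysed here. The series looked for genes controlled by NANOG, a homeobox factor of pluripotent cells, together with HDAC1, a histone deacetylase. Each group held 1 library, so no difference has a replicate check, and no test, standard error or interval is given.

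MHC class I molecules carry peptides from inside the cell to its surface, where CD8+ T cells read them. Proteasomes cut proteins into peptides, the TAP transporter moves them into the endoplasmic reticulum, and the peptidases ERAP1 and ERAP2 trim them there. A heavy chain then folds with beta-2-microglobulin, the product of B2M, around the peptide with the help of a loading complex. NLRC5 is a transactivator that acts on class I promoters through the RFX, CREB and NF-Y proteins bound there, and interferon raises most genes of the pathway. Loss of class I from the surface is a known route of immune escape in tumors, including carcinomas of the cervix.

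The proximal promoters are shown first, because the heavy chain genes and B2M are known for a shared set of elements. Whether these elements bear on the values below was not tested. RefSeq promoter entries were found for 8 of the 9 genes, with GRCh38.p14 coordinates; ERAP1 and ERAP2 had 2 entries each. They hold the reference sequence, not the alleles of CaSki. The last 250 bases before each annotated start were searched on both strands for 4 motifs. These were the NF-kB binding motif kB, a core of the interferon response element made of 2 copies of GAAA with any 2 bases between, the short site TGACG found in X2 boxes, and CCAAT, the core of the Y box. Matches are in capitals, and neighbouring matches can overlap. The stretches of the 3 heavy chain genes and B2M were, in this order, chr6:31357221-31357366 on the minus strand, chr6:31272134-31272294 on the minus strand, chr6:29723268-29723391 on the plus strand and chr15:44711363-44711482 on the plus strand:
HLA-B: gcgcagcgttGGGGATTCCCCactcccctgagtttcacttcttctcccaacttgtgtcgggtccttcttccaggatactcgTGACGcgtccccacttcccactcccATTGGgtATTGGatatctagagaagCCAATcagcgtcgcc
HLA-C: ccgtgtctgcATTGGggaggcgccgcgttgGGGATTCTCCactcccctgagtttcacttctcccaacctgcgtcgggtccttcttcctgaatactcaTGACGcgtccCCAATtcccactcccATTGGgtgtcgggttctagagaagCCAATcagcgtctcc
HLA-F: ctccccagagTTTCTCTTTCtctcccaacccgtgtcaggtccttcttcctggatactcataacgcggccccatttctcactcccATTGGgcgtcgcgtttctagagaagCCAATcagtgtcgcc
B2M: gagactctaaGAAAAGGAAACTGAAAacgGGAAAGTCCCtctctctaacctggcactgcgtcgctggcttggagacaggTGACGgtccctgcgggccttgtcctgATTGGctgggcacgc
HLA-B, HLA-C and B2M each had TGACG followed by ATTGG, the reverse of CCAAT, with 20, 20 and 21 bases between them. Of all 35116 promoter entries, 0.943% held this pair with 10 to 40 bases between, a range set after these sequences had been read. HLA-F had CCAAT matches but no TGACG in the window.

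The shorter stretches of 3 further genes are shown for their interferon response cores, which lay close to the start. TAP2 was read from chr6:32838760-32838807 on the minus strand, ERAP2 from chr5:96876460-96876489 on the plus strand, from the second of its entries, and PSMB10 from chr16:67936852-67936881 on the minus strand:
TAP2: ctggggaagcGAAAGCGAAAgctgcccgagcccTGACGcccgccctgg
ERAP2: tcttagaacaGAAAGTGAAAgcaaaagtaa
PSMB10: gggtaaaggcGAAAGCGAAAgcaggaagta
The interferon response core was present in 5 of the 8 genes with an entry (HLA-F, B2M, TAP2, ERAP2 and PSMB10) and in 3.02% of all entries. The kB motif was present in 4 of the 8 (HLA-B, HLA-C, B2M and ERAP1) and in 6.88% of all entries. TGACG was present in 4 of the 8 and in 21.2% of all entries, and CCAAT in 5 of the 8 and in 32.0%. A gene was counted if any of its entries had a match, while the shares are over single entries. The second entry of ERAP1 and the first of ERAP2 had no match to any of the 4 motifs. A match describes these letters in the reference and does not show that a factor binds there. The search took exact letters only, so elements spelled otherwise were missed. That HLA-B and HLA-C had no match to the interferon response core does not show that they lack such an element.

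**Figure D1:**
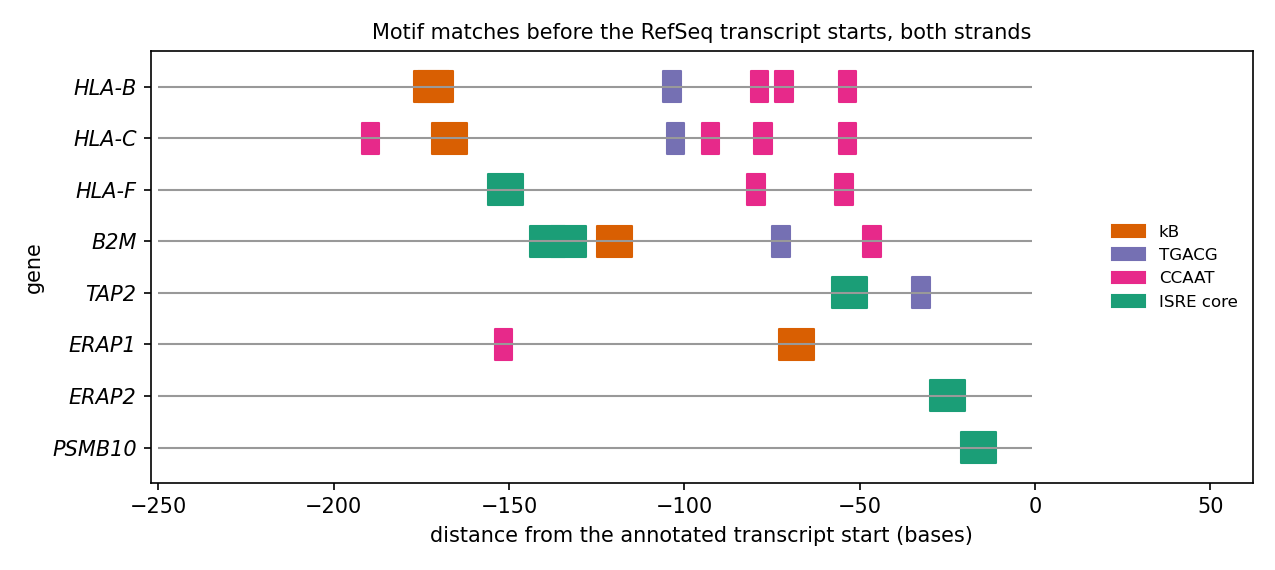
Motif matches on either strand in the 250 bases before the annotated transcript start (x axis, distance in bases) for the 8 genes with a RefSeq promoter entry (rows; the second entry for ERAP2, the first for ERAP1). The other entries of ERAP1 and ERAP2 had no match and are not drawn. Colored boxes are matches to kB, the interferon response core, TGACG and CCAAT; the TGACG box and 2 of the CCAAT boxes of HLA-B lie at nearly the same distances as in HLA-C, while the other CCAAT boxes have no such partner.

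Values of the MHC region need care. Of 130 protein-coding symbols from HLA-F to DAXX on chromosome 6, in RefSeq gene order, 96 (73.8%) were listed at exactly 0 in all 3 libraries. On the rest of chromosome 6 this was 145 of 727 symbols (19.9%), and over all protein-coding symbols outside the region 16.6%. Among the genes listed at 0 were RPS18, a ribosomal protein gene, and TUBB, a tubulin gene, which dividing cells use; these were named after their values were seen. A listed 0 here is thus not a sign that a gene is silent. The pathway genes HLA-E, TAP1, TAPBP, PSMB8 and PSMB9 lie in the region, were at 0 in all 3 libraries and count as not measured. HLA-B, HLA-C, HLA-F and TAP2 lie there too and had values, but what share of their fragments those values hold is unknown. B2M, NLRC5, ERAP1, ERAP2 and PSMB10 lie on other chromosomes.

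**Figure D2:**
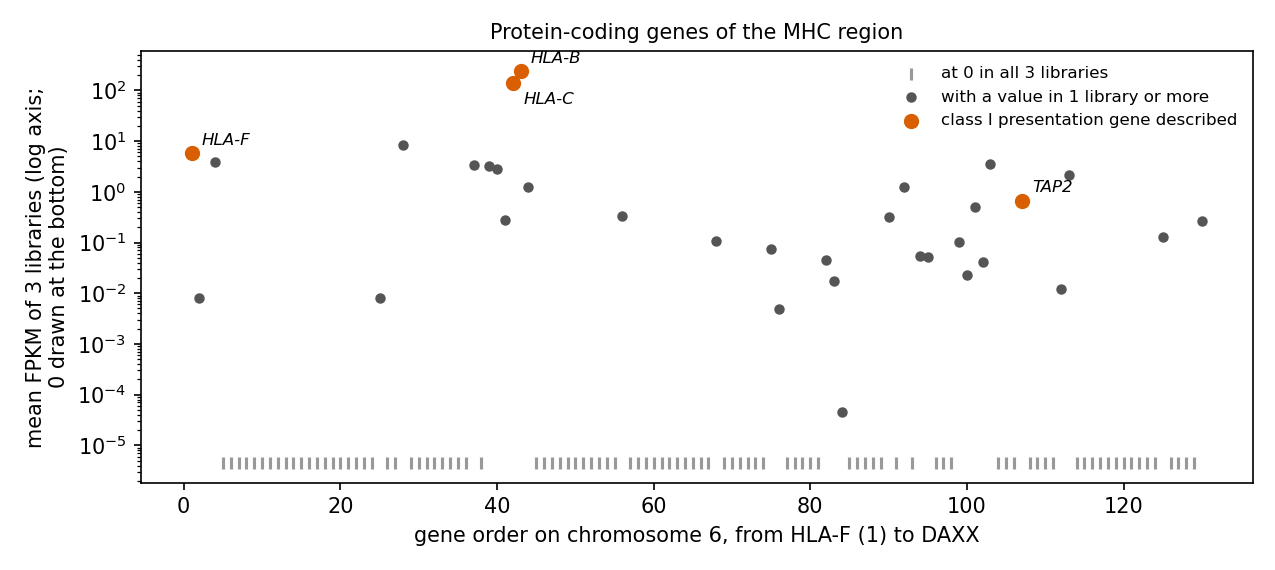
Mean FPKM over the 3 libraries (y axis, log scale) of 129 of the 130 protein-coding genes from HLA-F to DAXX, in their order on chromosome 6 (x axis); 1 gene is not drawn. Ticks at the bottom are the 96 genes listed at 0 in every library, grey points are genes with a value and orange points are HLA-F, HLA-C, HLA-B and TAP2, of which HLA-B and HLA-C are far above the other genes drawn.

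The libraries followed their labels for NANOG, at 0.0357 FPKM with empty vector, 298 FPKM with NANOG and GFP siRNA, and 325 FPKM with NANOG and HDAC1 siRNA. HDAC1 was at 19.02, 108 and 12.8 FPKM in those libraries, and every series of 3 values below follows that order. FPKM are fragment numbers divided by the length of the transcript and by the mapped fragments of the library. Read depth itself is unknown. The ratio of the FPKM value with empty vector to that in either NANOG library was sought among 2156 genes under 0.3 FPKM. Values of such genes move in steps of few fragments. Within the narrow range around equality that was searched, the most frequent ratio was 1.02. Near this ratio lay 14.8% of these genes for NANOG with GFP siRNA and 14.7% for NANOG with HDAC1 siRNA. A ratio outside that range could not have been found, so the relative depths are not settled. The 11 epithelial markers summed to 5686, 5882 and 5013 FPKM. Of these, 4 were higher and 7 lower with NANOG than with empty vector (median -0.31), where 49.2% of all genes were higher. KRT19 was among the lower, at 1562, 1132 and 945 FPKM, and KRT5 among the higher, at 555, 959 and 540 FPKM. The 11 immune cell markers summed to 0.693, 0.896 and 0.832 FPKM, with CD3D, MS4A1 and TYROBP at 0 throughout and PTPRC at 0.0149 FPKM or 0. The 5 endothelial markers summed to 0.432, 0.515 and 0.574 FPKM, and the 7 fibroblast markers to 0.140, 1.04 and 0.0936 FPKM, where COL1A2 alone held 0.948 FPKM of the NANOG GFP siRNA sum.

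All 9 genes had a value above 0 in each library, and their levels kept 1 order in all of them. B2M stood highest, followed by HLA-B, HLA-C, PSMB10, ERAP1, HLA-F, NLRC5, ERAP2 and TAP2, and the range of each gene over the 3 libraries lay wholly below that of the gene before it. The closest neighbours were HLA-F, with a lowest value of 5.53 FPKM, and NLRC5, with a highest of 5.35 FPKM. Differences below are of log2(FPKM + 1), which understates the change of genes with few FPKM. They are set beside all 11398 genes whose mean over the libraries was 1 FPKM or more, a line that 8 of the 9 genes passed and TAP2 did not. In bulk RNA, fewer cells that express a gene and less RNA per cell cannot be told apart.

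**Figure D3:**
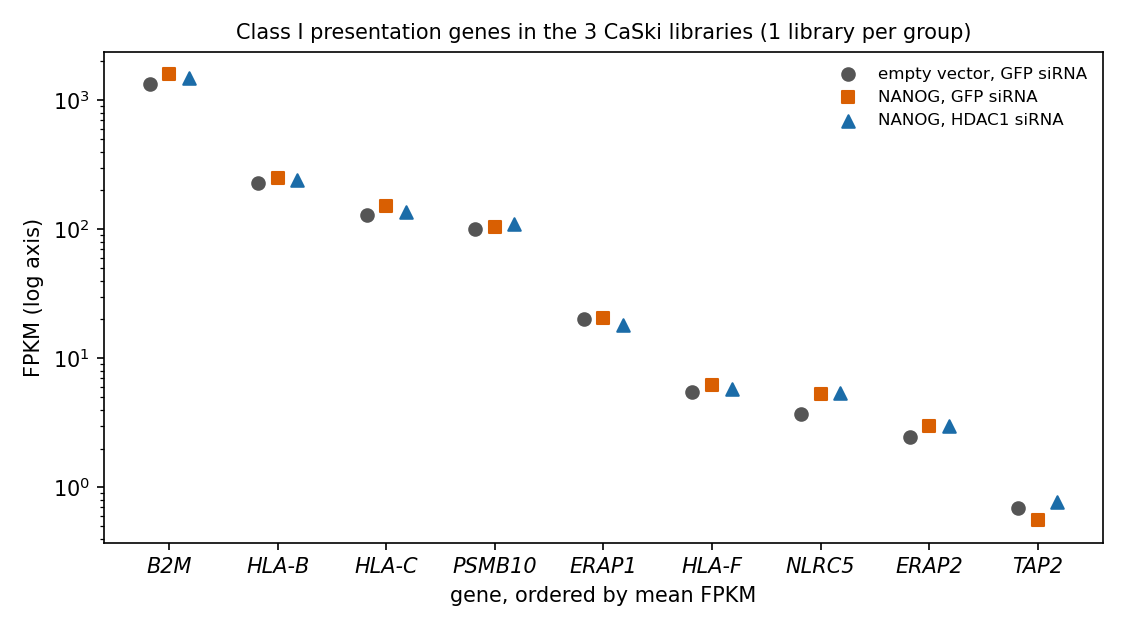
FPKM (y axis, log scale) of the 9 class I presentation genes (x axis, ordered by mean FPKM) in each of the 3 libraries; each point is 1 library. The genes span from TAP2, below 1 FPKM, to B2M, above 1336 FPKM, and the 3 points of each gene lie close together beside this span.

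Most of the class I genes were slightly higher with NANOG than with empty vector, and none of them by much. All 8 of the 8 genes compared were higher, against 49.2% of all genes. Their median difference was 0.17 on the log2(FPKM + 1) scale, beside -0.01 over all genes. TAP2, below the 1 FPKM line and so not compared, was lower, at -0.12. Among the 8, ERAP1 was the exception under another scaling. Rescaling each library to the same sum (TPM) turned its difference from 0.03 to -0.01. None of the 8 reached 2-fold, which 1.88% of all genes did in either direction, and none reached 1.5-fold, which 8.72% did. NLRC5 differed most, at 0.42, and 18.2% of all genes were at least as far from 0. For B2M (0.26) this share was 38.0%, for HLA-C (0.23) 42.9% and for ERAP1 91.1%. The differences of most of these genes are thus of a size that a large part of all genes showed between the same 2 libraries.

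With HDAC1 siRNA in NANOG cells, 2 of the 8 genes were higher than with GFP siRNA, against 53.4% of all genes, and 6 were lower. The median difference of the 8 was -0.06 beside 0.01 over all genes. TAP2, not among them, was higher, at 0.19. None of the 8 reached 2-fold, which 0.298% of all genes did, or 1.5-fold, which 2.11% did. Rescaling to TPM brought the median over all genes to 0.18 and turned HLA-B, HLA-C, HLA-F, B2M and ERAP2 to higher values, from 0.04 for HLA-C to 0.15 for ERAP2, all still under that median. The 2 comparisons share the NANOG GFP siRNA library, so that a high value there makes a gene higher in the first and lower in the second. NANOG cells with HDAC1 siRNA were also set against empty vector cells with GFP siRNA. There 7 of the 8 genes were higher, against 49.8% of all genes, with a median of 0.10 beside 0.00, and ERAP1 was lower. None reached 2-fold in this pair of libraries, which 1.18% of all genes did, or 1.5-fold, which 5.22% did.

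**Figure D4:**
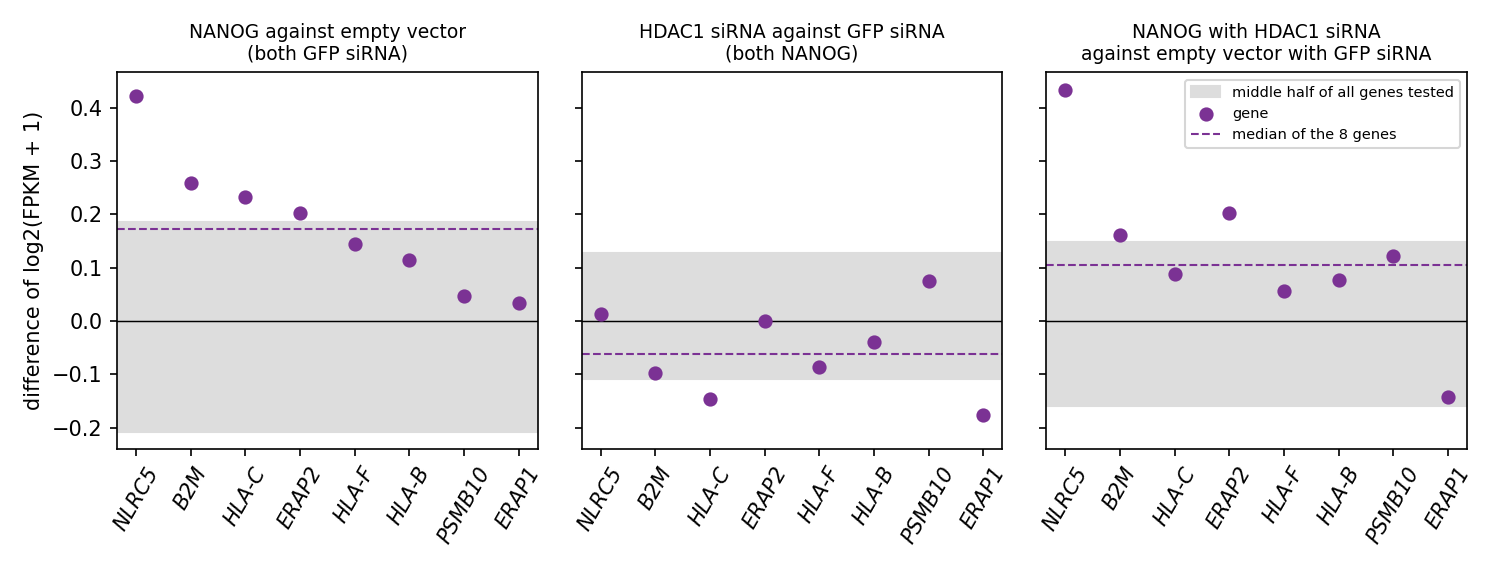
Difference of log2(FPKM + 1) (y axis) of the 8 class I presentation genes compared (x axis) in the 3 comparisons of 2 libraries each. Points are genes, the dashed line is their median and the grey band runs from the 25th to the 75th percentile of all genes tested. NLRC5, at 0.42 and 0.43, stands highest in both comparisons with empty vector. B2M and ERAP2 also lie above the band in both, and HLA-C does so for NANOG with GFP siRNA.

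The heavy chains present the peptide. HLA-B and HLA-C are classical chains, found on nearly all nucleated cells, and HLA-F is a nonclassical chain with low surface levels. HLA-B was at 230 FPKM with empty vector, 249 FPKM with NANOG and 242 FPKM with NANOG and HDAC1 siRNA. The NANOG GFP siRNA library was highest and the empty vector library lowest, 1.08-fold apart. HLA-C was at 128, 151 and 136 FPKM, with the libraries ordered alike and 1.18-fold from lowest to highest. HLA-F was at 5.53, 6.21 and 5.79 FPKM, again in that order and 1.12-fold apart. For HDAC1 siRNA against GFP siRNA the differences were -0.04 for HLA-B, -0.15 for HLA-C and -0.09 for HLA-F, which rescaling to TPM turned to 0.14, 0.04 and 0.07. Heavy chain genes are alike in sequence, and how fragments that match several of them were assigned is not given, so that the split between them is uncertain. The heavy chain pseudogene HLA-H was at 2.12, 1.82 and 2.12 FPKM, lowest where these 3 were highest. HLA-F-AS1, an antisense gene at HLA-F named after its values were seen, was at 0.258, 0.448 and 0.273 FPKM. How strand was handled in counting is not given in the sources used here.

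B2M encodes the light chain that pairs with class I heavy chains. It was at 1336 FPKM with empty vector, 1599 FPKM with NANOG and 1495 FPKM with NANOG and HDAC1 siRNA. It ranked 49, 32 and 33 among all symbols other than small RNAs, so that it was among the most abundant mRNAs in each library. The order of libraries was that of HLA-B, HLA-C and HLA-F, with 1.20-fold between NANOG and empty vector. Its difference between HDAC1 siRNA and GFP siRNA was -0.10, or 0.09 once rescaled to TPM.

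Ratios within a library do not depend on its scaling, and those of each heavy chain gene to B2M spread by 1.05-fold to 1.10-fold over the libraries. HLA-B stood at 1.79, 1.65 and 1.78 times HLA-C, so that HLA-C was nearest to HLA-B in the NANOG GFP siRNA library. B2M stood at 3.67, 3.94 and 3.89 times the sum of HLA-B, HLA-C and HLA-F, a spread of 1.07-fold. That sum is not all heavy chain RNA, since HLA-E was not measured and the share of fragments held is unknown. B2M to HLA-C was 10.4, 10.6 and 11.0, and B2M to HLA-B was 5.81, 6.42 and 6.17. The ratio of B2M to either chain was lowest with empty vector.

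The order with the NANOG GFP siRNA library highest and the empty vector library lowest held for 5 of the 9 genes, HLA-B, HLA-C, HLA-F, B2M and ERAP2, and for 22.6% of all genes tested. Rescaling to TPM made the HDAC1 siRNA library the highest for these 5 genes. Among other genes averaging 5 FPKM or more, the closest in pattern were sought by Euclidean distance of log2(FPKM + 1) centred on each gene's mean over the 3 libraries. For HLA-C these were GPX4 (171, 201 and 182 FPKM) and MDH2 (165, 195 and 175 FPKM), at distances of 0.0029 and 0.0032. For B2M the closest was ZDHHC4, at 34.6, 41.4 and 38.9 FPKM. With 3 libraries such likeness is common: 236 of 8383 genes lay within 0.05 of HLA-C, 251 of B2M and 453 of HLA-B. NLRC5 had fewer such neighbours, 65, the closest being PLEK2 at 19.5, 26.7 and 26.7 FPKM and HNRNPL at 150, 203 and 202 FPKM.

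TAP2 encodes a subunit of the transporter that brings peptides into the endoplasmic reticulum; its partner is the product of TAP1, which was not measured. TAP2 was at 0.692 FPKM with empty vector, 0.556 FPKM with NANOG and 0.772 FPKM with NANOG and HDAC1 siRNA. It was the lowest of the 9 genes and the only one with its lowest value in the NANOG GFP siRNA library. HDAC1 siRNA stood 1.39-fold above GFP siRNA in plain FPKM, but the level is under 1 FPKM and the gene lies among the region's many genes listed at 0. On the log2(FPKM + 1) scale it differed by -0.12 between NANOG and empty vector and by 0.19 between HDAC1 siRNA and GFP siRNA; these values were -0.27 and 0.41 with a pseudocount of 0.1 FPKM.

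The other genes of loading and folding went different ways. For this list and each later one, the share of all genes that were higher was 49.2% with NANOG and 53.4% with HDAC1 siRNA. These lists were not rescaled to TPM, which moved the median over all genes with HDAC1 siRNA from 0.01 to 0.18. Their directions with HDAC1 siRNA thus hold for the values as deposited only. Of the 9 genes listed for this step, with B2M and TAP2 among them, 6 were compared. With NANOG 3 were higher and 3 lower (median 0.05), and with HDAC1 siRNA 1 was higher and 5 lower (median -0.07), none of them by 2-fold. The lectin chaperone genes CALR and CANX, whose products hold newly made heavy chains, had their high value in the NANOG GFP siRNA library and like values in the others. CANX was at 293, 380 and 280 FPKM and CALR at 316, 537 and 282 FPKM. PDIA3, a thiol oxidoreductase of the loading complex, was instead highest with empty vector, at 341, 258 and 250 FPKM. TAPBPL, which encodes the peptide editor TAPBPR, was at 19.2, 17.2 and 20.8 FPKM, lowest in the NANOG GFP siRNA library as TAP2 was. UGGT1, which encodes the glycoprotein folding sensor, was at 13.8, 12.2 and 12.0 FPKM.

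ERAP1 and ERAP2 encode aminopeptidases that trim peptides to fit the class I groove. ERAP1 was at 20.1 FPKM with empty vector, 20.6 FPKM with NANOG and 18.1 FPKM with NANOG and HDAC1 siRNA, the only one of the 9 that was lowest with HDAC1 siRNA. The difference for HDAC1 siRNA against GFP siRNA was -0.18, which 33.6% of all genes equalled or passed in size, and 0.00 after rescaling to TPM. ERAP2 was at 2.47, 2.998 and 2.997 FPKM, lower with empty vector and alike in both NANOG libraries. The ratio of ERAP1 to ERAP2 was 8.10 with empty vector, 6.86 with NANOG and 6.03 with NANOG and HDAC1 siRNA. This ratio spread 1.34-fold, more than that of any heavy chain to B2M.

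Cytosolic and vesicular peptidases that make or destroy class I peptides were listed with them, 10 genes in all. With NANOG 7 of the 10 were higher and 3 lower (median 0.04). With HDAC1 siRNA 4 were higher and 6 lower (median -0.05). LAP3, a leucine aminopeptidase raised by interferon, was at 16.8, 26.5 and 20.5 FPKM, and BLMH, bleomycin hydrolase, at 14.2, 21.0 and 16.1 FPKM. IDE, the insulin-degrading enzyme, was at 5.87, 8.87 and 6.81 FPKM, so that these 3 shared a high value in the NANOG GFP siRNA library. NPEPPS, the puromycin-sensitive aminopeptidase, was the other way round, at 60.4, 36.8 and 42.6 FPKM. LNPEP, which trims peptides in endosomes, was at 5.66, 5.03 and 5.58 FPKM, and THOP1, which degrades peptides in the cytosol, at 27.9, 29.0 and 32.6 FPKM.

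PSMB10 encodes a catalytic subunit of the immunoproteasome, the form that interferon induces, and replaces the product of PSMB7. PSMB10 was at 101 FPKM with empty vector, 104 FPKM with NANOG and 110 FPKM with NANOG and HDAC1 siRNA, a spread of 1.09-fold. PSMB7 was at 174, 228 and 212 FPKM, higher in both NANOG libraries. The ratio of PSMB10 to PSMB7 was thus highest with empty vector, at 0.578, and lower with NANOG, at 0.455, and with NANOG and HDAC1 siRNA, at 0.517. The other constitutive catalytic genes, PSMB6 (189, 260 and 250 FPKM) and PSMB5 (67.3, 74.1 and 75.2 FPKM), were also lowest with empty vector. Their median difference for NANOG against empty vector was 0.39 over the 3 genes, beside 0.05 for PSMB10. The catalytic immunoproteasome genes PSMB8 and PSMB9 were not measured, so PSMB10 is the only one of that set with a value. The proteasome activator genes PSME1 (78.3, 69.4 and 64.0 FPKM) and PSME2 (82.6, 82.2 and 80.9 FPKM) were highest with empty vector, and POMP, which encodes an assembly factor, was at 50.7, 57.5 and 57.0 FPKM.

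NLRC5 showed the widest spread among the 8 genes compared. It was at 3.70 FPKM with empty vector, 5.30 FPKM with NANOG and 5.35 FPKM with NANOG and HDAC1 siRNA. Both NANOG libraries stood above the empty vector library, 1.43-fold and 1.45-fold in plain FPKM, and they differed from each other by 1.01-fold. On the log2(FPKM + 1) scale NANOG with HDAC1 siRNA against empty vector was 0.43, with 10.5% of all genes at least as far from 0. HDAC1 siRNA against GFP siRNA was 0.01, nearer to 0 than 94.3% of all genes. Leukocytes express NLRC5 strongly. The summed immune cell markers given above were under 1 FPKM in each library, and a link between them and the NLRC5 values was not tested.

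The proteins through which NLRC5 acts on class I promoters had less even values. Of the 10 listed regulators, NLRC5 among them, 9 were compared. With NANOG 6 were higher and 3 lower (median 0.06), and with HDAC1 siRNA 7 were higher and 2 lower (median 0.04). RFX5, a subunit of the RFX complex, was at 19.9, 22.1 and 18.7 FPKM, RFXANK at 15.7, 16.4 and 16.4 FPKM and RFXAP at 1.17, 1.29 and 1.72 FPKM. The NF-Y subunit genes, whose products bind CCAAT, were at 3.25, 3.98 and 3.56 FPKM for NFYA, 8.22, 7.17 and 8.97 FPKM for NFYB and 31.5, 32.0 and 36.1 FPKM for NFYC. NFYA was highest and NFYB lowest in the NANOG GFP siRNA library. CIITA, the class II transactivator and a relative of NLRC5, was at 0.0695, 0.235 and 0.265 FPKM, too low to be compared.

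Interferon signalling genes did not share an order either, with 8 of 14 higher and 6 lower with NANOG (median 0.08), and 6 higher and 8 lower with HDAC1 siRNA (median -0.02). IRF1, a transcription factor that interferon gamma induces and that binds class I promoters, was at 32.4, 42.3 and 49.6 FPKM, lowest with empty vector as NLRC5 was. IFNGR1, a subunit of the interferon gamma receptor, was at 19.1, 24.3 and 15.0 FPKM, and the kinase gene JAK1 at 39.4, 28.6 and 30.7 FPKM. SOCS3, a feedback inhibitor, was at 12.0, 9.69 and 13.5 FPKM. Of 21 interferon targets compared, 16 were higher with NANOG, against 49.2% of all genes. Their median was 0.39, beside 0.17 for the class I genes and -0.01 over all genes. With HDAC1 siRNA 5 of the 21 were higher, against 53.4% of all genes, and 16 were lower (median -0.15). These targets were not rescaled to TPM, which moved the median over all genes with HDAC1 siRNA to 0.18. Both comparisons use the NANOG GFP siRNA library. Not all were higher with NANOG: GBP1, a guanylate-binding protein that interferon gamma induces, was at 9.57, 5.02 and 5.21 FPKM.

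**Figure D5:**
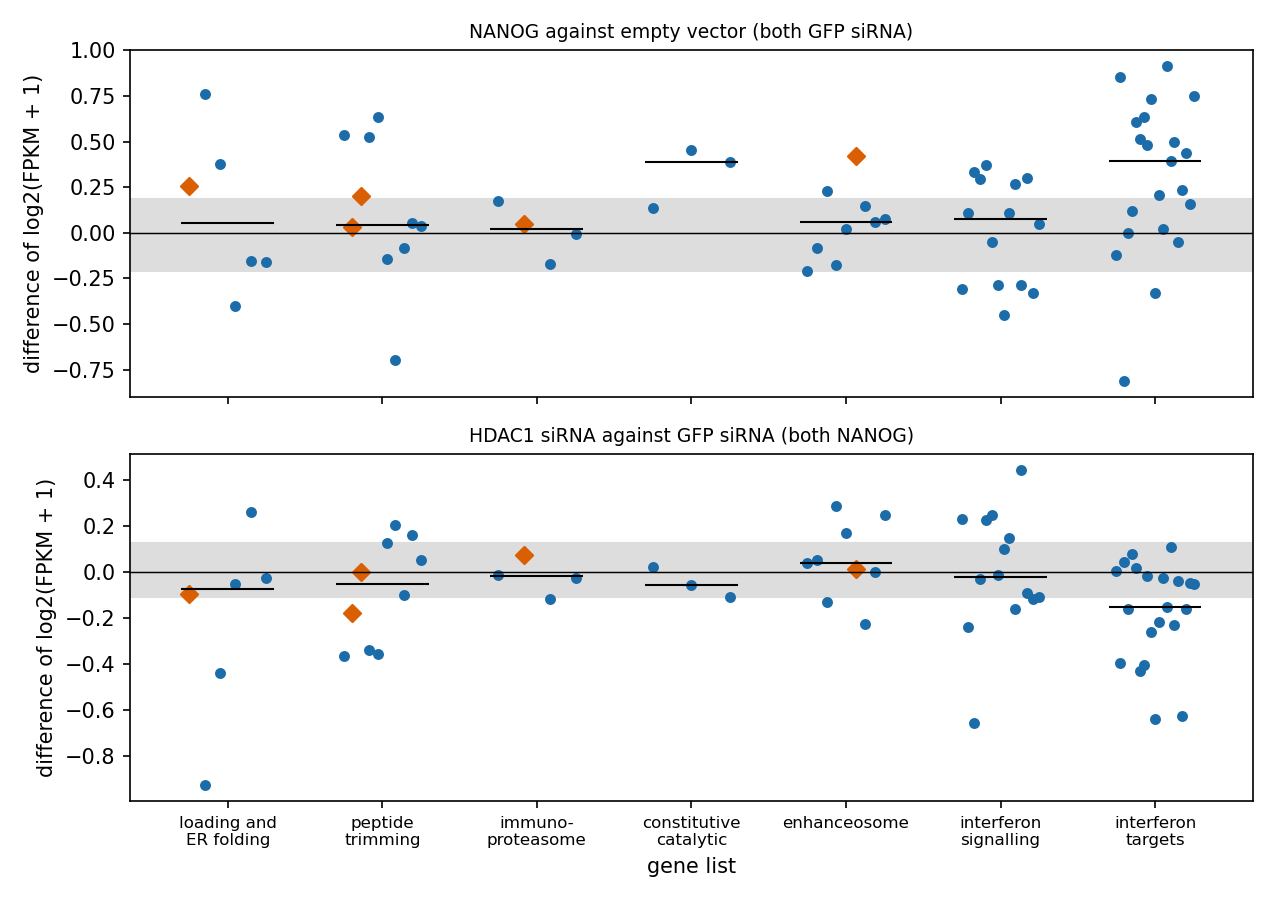
Difference of log2(FPKM + 1) (y axis) of each compared gene, by gene list (x axis), with NANOG against empty vector at the top and with HDAC1 siRNA in NANOG cells at the bottom. Values are as deposited, without rescaling. Orange diamonds are B2M, ERAP1, ERAP2, PSMB10 and NLRC5, blue points are the other genes of each list, black lines are list medians and the grey band runs from the 25th to the 75th percentile of all genes; the interferon targets have a median of 0.39 in the top panel and -0.15 in the bottom panel.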

How the data were processed

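Total RNA of 3 CaSki cultures was sequenced, 1 library per group, with groups taken from the sample titles. Per the labels' protocols, libraries were made from 2 ug of RNA with a stranded total RNA kit. The build was hg19 and the tools were TopHat2 and Cufflinks, per the submitters' processing notes; for their versions, the annotation and strand handling the sources used here say nothing. FPKM values, 1 per symbol and library, were deposited by the authors; they already divide by transcript length and library size, so that very abundant RNAs lower all other values. Symbols of small RNAs (1641 of 23277) were left out; they held 21.2%, 23.1% and 16.0% of the FPKM sums of 660990, 681947 and 600749. Differences of log2(FPKM + 1) were taken over 11398 genes whose mean over the libraries was 1 FPKM or more; 2-fold and 1.5-fold lines were counted, with no test. The genes and lists were chosen with earlier results of these data known. All 9 genes, the pathway lists, up to 4 genes of other lists and the closest genes in pattern could be named; some genes are not reported here. Promoters and gene order came from RefSeq tables of GRCh38.p14, not the build of the values. Only the count of 2-fold differences for NANOG against empty vector was tested on simulated data, with planted changes larger than 2-fold. Smaller differences, ratios, likeness, promoter matches and rescalings were not tested in this way. Alternatives were pseudocounts of 0.1 and 0.5 FPKM, no filter or a filter at 5 FPKM, 3 rescalings (upper quartile, median log2 ratio of 0, TPM), small RNAs kept and the mean over genes; TPM from sums without small RNAs was added after seeing the data. Python 3.11.15, numpy 2.4.6, pandas 2.3.3 and matplotlib 3.10.9 were used.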

Additional observations from a re-analysis of the deposited data

How the results depend on the processing

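The median difference of the class I genes for NANOG against empty vector lay between 0.11 and 0.20 over all alternatives, with 0.17 as reported. For the other comparisons, 1 alternative moved the median by at least 0.1, the tolerance used in the absence of replicates: rescaling to TPM gave 0.14 for HDAC1 siRNA against GFP siRNA (-0.06 as reported) and 0.22 for NANOG with HDAC1 siRNA against empty vector (0.10). That rescaling moved the median of all genes to 0.18 and 0.13, and 9 genes then passed the filter. With the small RNAs left out of the sums, the first of these was 0.02, beside 0.06 over all genes. Of 243 values of single genes, 223 moved by less than 0.1. Part of that count was fixed in advance. The 2 changes of the filter and the keeping of small RNAs alter which genes are compared, not the difference of a gene. Among the 243 values, 8 changed sign. Under TPM these were HLA-B (0.14), HLA-C (0.04), HLA-F (0.07), B2M (0.09) and ERAP2 (0.15) with HDAC1 siRNA and ERAP1 (-0.01) with NANOG. Under TPM without small RNAs they were HLA-B and ERAP2 with HDAC1 siRNA. NLRC5 passed the 1.5-fold line at 0.59 in NANOG with HDAC1 siRNA against empty vector under TPM. No paired analysis was possible because each group held 1 library. Depth is unknown, so that counting error has no value for any of the genes.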

Other observations

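Genes of class I-like molecules, among them ligands that NK cells read through NKG2D, were listed beside the class I genes. Of 14 genes 10 were compared, with 6 higher and 4 lower with NANOG (median 0.11). ULBP3 was at 4.35 FPKM with empty vector, 6.96 FPKM with NANOG and 6.74 FPKM with NANOG and HDAC1 siRNA, and RAET1E at 0.413, 1.07 and 0.898 FPKM. RAET1L was at 6.09, 4.72 and 8.04 FPKM, lowest in the NANOG GFP siRNA library. MICA, which lies in the MHC region, was at 1.31, 0.819 and 1.62 FPKM. Its neighbour MICB was listed at 0 in all 3 libraries and counts as not measured.

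Of 5 genes of ligands that restrain immune cells, 2 were higher and 3 lower with NANOG. Among them, PDCD1LG2, which encodes PD-L2, was at 20.9, 11.0 and 15.1 FPKM, highest with empty vector. CD274, which encodes PD-L1, was at 15.9, 13.9 and 17.9 FPKM and CD47, a ligand that inhibits phagocytosis, at 13.5, 10.3 and 11.5 FPKM. These 3 were lowest in the NANOG GFP siRNA library. The others were not: CD276, which encodes B7-H3, was at 42.7, 43.6 and 47.0 FPKM, and LGALS9, which encodes galectin-9, at 0.939, 1.75 and 1.53 FPKM. Of 12 class II pathway genes, 5 were listed at 0 in all 3 libraries, and of the others HLA-DQB1 was highest, at 3.85, 3.55 and 3.35 FPKM. All of the 12 but CD74 lie in the MHC region, where a listed 0 is not a sign that a gene is silent. CD74, the invariant chain gene outside the MHC region, was at 0.639, 1.12 and 0.613 FPKM.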
